A study of Rattus norvegicus with 47 samples.

Results

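The cortex of rats 4 h after a brain injury was compared between the side of the injury (ipsilateral) and the opposite side (contralateral). The groups were chosen from the labels by region, side and time, and they hold 15 of the 47 arrays in the series: ipsilateral cortex at 4 h (7 arrays, numbered 1 and 3 to 8 by RNA extraction) and contralateral cortex at 4 h (8 arrays, numbered 9 to 16). The other arrays hold cortex at 24 h (8 ipsilateral and 8 contralateral) and hippocampus at 4 h (7 ipsilateral and 9 contralateral). They are used where a side difference is set against that of cortex at 4 h, and in the estimate of spread that all groups share. Each array measured total RNA, extracted with Trizol, on 8799 probe sets, which are sets of short oligonucleotides that together report 1 transcript. The labels give the species as rat and the tissue, side and hours, and one treatment word that all arrays share. Strain, age and the kind of injury are not named there. The labels do not say whether any of the 15 arrays came from a sham-operated animal, so either side may hold such arrays, and a difference between sides is not a comparison of injured with uninjured animals. Whether each array stands for its own animal is not stated, and p-values therefore cover the variation among RNA samples alone, some of which may be technical. Whether both sides came from the same animals is not stated either, and the tests treat all arrays as independent. The limma SEs and p-values below rest on a spread pooled over all 47 arrays. For a gene that varies more on the 15 compared arrays than on the others, they can be too small.

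Injured brain tissue is known to turn on genes in waves. Immediate early transcription factors such as those of the Fos, Jun and Myc families are induced first, in neurons and glia, without new protein synthesis. Within hours, damaged and glial cells release cytokines and chemokines, which attract leukocytes, while endothelial cells display adhesion molecules that let those leukocytes leave the blood. Heat shock proteins, which refold damaged proteins, and haem oxygenase, which breaks down haem from extravasated blood, belong to the same early phase.

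Of the genes that the naming rule picked for the side difference and that were higher on the ipsilateral side 8 exceeded a 2-fold difference, and the sequence before the start of 6 of them was held by the RefSeq table of rat promoters (GRCr8): Cxcl10, Icam1, Tgfb1, Itih4, Pla1a and Hspa1a. They are shown as the sequence next to the annotated starts of these genes. Whether those starts were in use here, and whether these bases control the transcripts, was not measured. Each run holds the 250 bases before the gene's start, 5′ to 3′ on the gene's strand, which is the plus strand for all 6. Capitals mark matches, on either strand, to 7 short motifs of factors known to act in inflammation, growth and stress: the NF-kB consensus (named only), the interferon-stimulated response element (named only), the AP-1 site TGACTCA or TGAGTCA, the STAT site TTCNNNGAA, the heat shock element GAANNTTC, the cAMP response element TGACGTCA and the serum response element (named only).
Cxcl10, chr14:15988816-15989065: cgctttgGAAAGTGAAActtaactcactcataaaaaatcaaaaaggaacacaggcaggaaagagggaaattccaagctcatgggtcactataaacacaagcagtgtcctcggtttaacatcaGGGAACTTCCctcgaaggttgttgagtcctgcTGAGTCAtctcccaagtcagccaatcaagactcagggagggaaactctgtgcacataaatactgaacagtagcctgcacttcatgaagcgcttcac
Icam1, chr8:27829595-27829844: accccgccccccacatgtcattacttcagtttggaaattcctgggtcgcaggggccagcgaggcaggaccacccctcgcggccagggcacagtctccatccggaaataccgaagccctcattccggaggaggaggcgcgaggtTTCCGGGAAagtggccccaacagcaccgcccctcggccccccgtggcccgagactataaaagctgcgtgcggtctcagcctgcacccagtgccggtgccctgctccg
Tgfb1, chr1:90324062-90324311: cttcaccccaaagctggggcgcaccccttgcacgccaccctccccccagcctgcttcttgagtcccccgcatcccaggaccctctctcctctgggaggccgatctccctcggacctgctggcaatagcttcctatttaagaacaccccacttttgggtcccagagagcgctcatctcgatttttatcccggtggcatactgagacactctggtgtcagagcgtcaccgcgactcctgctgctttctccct
Itih4, chr16:6086735-6086984: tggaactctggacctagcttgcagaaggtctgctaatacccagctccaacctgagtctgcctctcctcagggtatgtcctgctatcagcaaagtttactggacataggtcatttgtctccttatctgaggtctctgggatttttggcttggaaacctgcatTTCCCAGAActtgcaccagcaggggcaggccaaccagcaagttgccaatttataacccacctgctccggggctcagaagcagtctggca
Pla1a, chr11:75825376-75825625: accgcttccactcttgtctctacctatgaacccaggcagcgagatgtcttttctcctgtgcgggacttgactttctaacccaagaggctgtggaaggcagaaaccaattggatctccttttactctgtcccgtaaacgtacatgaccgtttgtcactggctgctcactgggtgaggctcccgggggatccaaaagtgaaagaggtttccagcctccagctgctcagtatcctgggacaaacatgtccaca
Hspa1a, chr20:3859506-3859755: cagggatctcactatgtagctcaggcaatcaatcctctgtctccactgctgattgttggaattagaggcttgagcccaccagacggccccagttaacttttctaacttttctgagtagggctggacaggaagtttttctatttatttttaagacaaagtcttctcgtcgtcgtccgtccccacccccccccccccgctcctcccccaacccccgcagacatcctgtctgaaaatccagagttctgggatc

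In Cxcl10 the NF-kB consensus lay from -128 to -119, the interferon-stimulated response element from -243 to -234 on the minus strand, and the AP-1 site from -96 to -90, counted from the gene's start. The STAT site lay from -107 to -99 in Icam1 and from -89 to -81 in Itih4. The windows of Tgfb1, Pla1a and Hspa1a held none of the 7 motifs. Of the 33469 rat promoter windows of this length, 4.24% held the NF-kB consensus, 3.41% the interferon-stimulated response element, 4.05% the AP-1 site and 7.67% the STAT site. The heat shock element was in 7.23%, the cAMP response element in 1.59% and the serum response element in 1.5%. The search covered 17 genes, of which 12 had an entry, and 9 motifs in all. The 2 not marked in capitals are a looser kB pattern (named only), which holds the NF-kB consensus and was in 42.3% of all windows and 8 of the 12, and the core cAMP response element TGACG, in 18.2% of all windows and 3 of the 12. A match is a run of letters and not a measured binding site.

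No quality measure separated the sides by its test. The median signal of the 15 arrays ran from 615 to 806, and pairs of arrays correlated across probe sets with Pearson's r between 0.948 and 0.971 within the ipsilateral side and between 0.944 and 0.979 within the contralateral side, where probe sets are not independent replicates. Of 7 quality measures, among them the 10th percentile of signal and the control probe sets' 3-prime over 5-prime ratios, the smallest exact two-sided permutation p was 0.121 (adjusted p = 0.845 over the 7 measures; 7 arrays against 8 can give no p under 0.000155). The region markers were chosen with earlier results of these data known, so they are no independent check of the tissue. The hippocampal genes Gpr161, Doc2b and Neurod1 differed by −2.93, −2.22 and −1.77 log2 units from the hippocampus arrays, and the cortical gene Rgs4 by 1.42. Rorb, the other cortical marker measured, differed by 0.52, and was above the detection floor on 5 of 7 ipsilateral and 5 of 8 contralateral arrays.

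No probe set passed the test of the side difference in cortex at 4 h (0% of 7503; limma, smallest adjusted p = 0.0599, for Chm). Values are log2 signals with a floor at 7.54, the 25th percentile of all signals, and a fold against arrays at that floor understates the difference in raw signal. At an unadjusted p under 0.05 stood 558 probe sets where 375 were expected by chance, but 304 with the 15 compared arrays alone and 350 with array weights, so the excess over chance was not kept under these settings. Of the 558, 288 were higher (3.84% of those tested) and 270 lower (3.6%) on the ipsilateral side. Sizes were less balanced than counts: 16 probe sets (0.213%) were over 2-fold higher and 2 (0.0267%) over 2-fold lower. The groups did not overlap for 1 probe set that was higher (0.0133%), that of Hspa1a, and for 0 that were lower (0%). Across all tested probe sets 49.3% were higher on the ipsilateral side, and the median difference was −0.0023 log2 units. The genes below are therefore described by their values, and none of them passed.

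**Figure D1:**
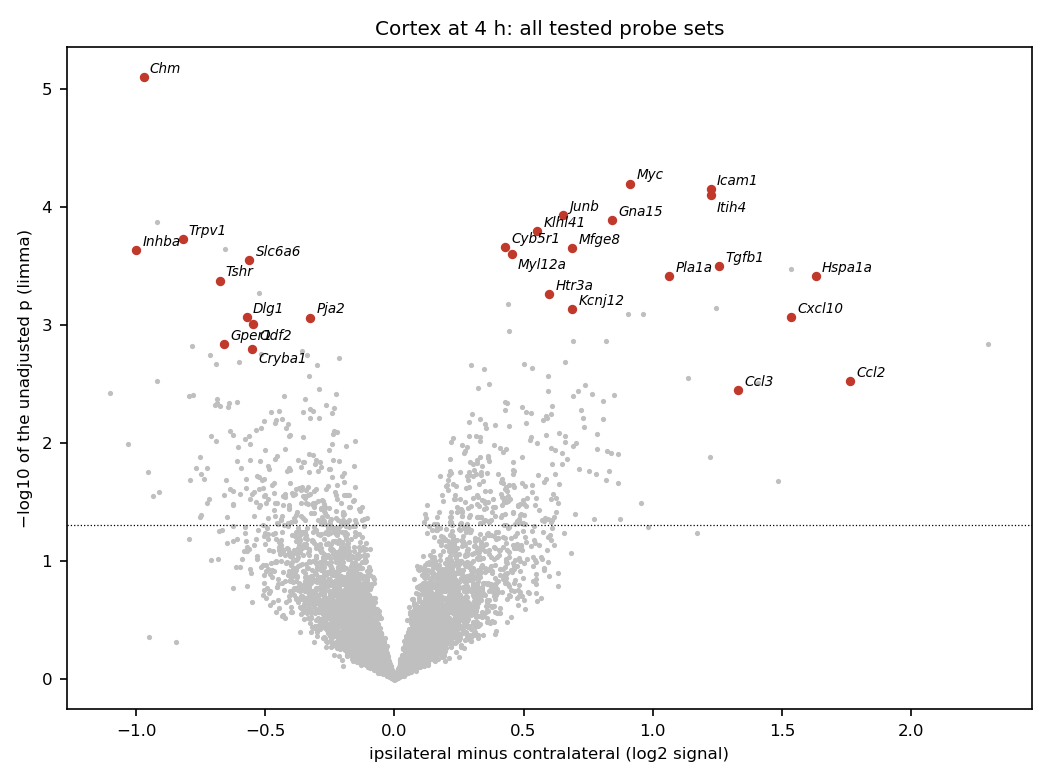
Each point is 1 of 7503 probe sets, with the ipsilateral minus contralateral difference in log2 signal on the horizontal axis and −log10 of the unadjusted limma p on the vertical axis. Red points are the named genes with the smallest p in each direction and the chemokine genes Cxcl10, Ccl2 and Ccl3, and the dotted line marks an unadjusted p of 0.05. The points beyond a difference of 1 number 16 on the higher side and 2 on the lower side.

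Among secreted ligands, the chemokines had the widest differences. Ccl2, which draws monocytes, ran from 8.99 through a median of 9.65 to 11.92 log2 signal on ipsilateral arrays, and from 7.88 through 8.69 to 9.16 on contralateral arrays. Arrays 5, 7 and 8 stood at 11.35 or more, arrays 3, 4 and 6 lay just above the contralateral range, and array 1 lay inside it. The difference was 1.76 (SE 0.56, 3.4-fold; limma adjusted p = 0.404). The other Ccl2 probe set differed by 2.30 (SE 0.68; limma adjusted p = 0.303) and also had 6 of 7 ipsilateral arrays above the contralateral maximum.

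Cxcl10, an interferon-induced chemokine for T cells, ran from the floor through 10.01 to 10.39 in ipsilateral cortex, and from the floor through the floor to 8.74 in contralateral cortex. It was above the floor on 6 of 7 ipsilateral and 3 of 8 contralateral arrays, and arrays 3, 5, 6, 7 and 8 exceeded the contralateral maximum. The difference was 1.54 (SE 0.43, 2.9-fold; limma adjusted p = 0.217). Ccl3, a chemokine of macrophages and microglia, ran from the floor through 9.02 to 10.83 on ipsilateral arrays, with arrays 5, 6, 7 and 8 between 9.02 and 10.83 and arrays 1, 3 and 4 at the floor. On the contralateral side it was above the floor on array 15 alone, at 8.19. The difference was 1.33 (SE 0.43; limma adjusted p = 0.42).

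Tgfb1, a growth factor that restrains inflammation and drives scar formation, was even across ipsilateral arrays and spread across contralateral ones. It ran from 9.65 through 10.09 to 10.70 in ipsilateral cortex, and from the floor through 8.99 to 10.02 in contralateral cortex. Arrays 3, 4, 5 and 8 lay above the contralateral range, and the 2 lowest contralateral arrays were 14, at 7.72, and 15, at the floor. The difference was 1.26 (SE 0.32, 2.39-fold; limma adjusted p = 0.149). Spp1, osteopontin, which activated macrophages secrete, ran from the floor through 9.05 to 10.40 on ipsilateral arrays and from the floor through 7.96 to 8.26 on contralateral arrays. Its difference of 1.17 (SE 0.60) had an unadjusted p of 0.0583, with array 1 at the floor and the other 6 ipsilateral arrays above the contralateral maximum. Spp1 is given with its values because it exceeded 2-fold, and was chosen after they were seen.

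The list of chemokines and cytokines held 17 tested genes, of which 12 were higher and 5 lower, with a median difference of 0.53 beside −3.5e-05 over all 4242 genes tested. At an unadjusted p under 0.05, 8 were higher and 0 lower, while over all genes, each represented by its brightest probe set, 3.82% were higher and 3.49% lower. At least 4 ipsilateral arrays lay above the contralateral maximum for 6 of the 17, beside 2.17% of all genes. The 8 were Ccl2, Cxcl10, Ccl3 and Tgfb1, together with Ccl4 (0.63), Il1b (0.70), Il18 (0.53) and Ccl20 (0.39), while Lif (−0.68), Il10 (−0.30) and Ifng (−0.21) were on the lower side without reaching that level. The list's mean on an ipsilateral array lay between 0.0047 and 0.95 log2 units from the contralateral median, and on a contralateral array between −0.49 and 0.11. Arrays 3, 5, 6, 7 and 8 stood above the contralateral range, and arrays 1 and 4 within it.

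**Figure D2:**
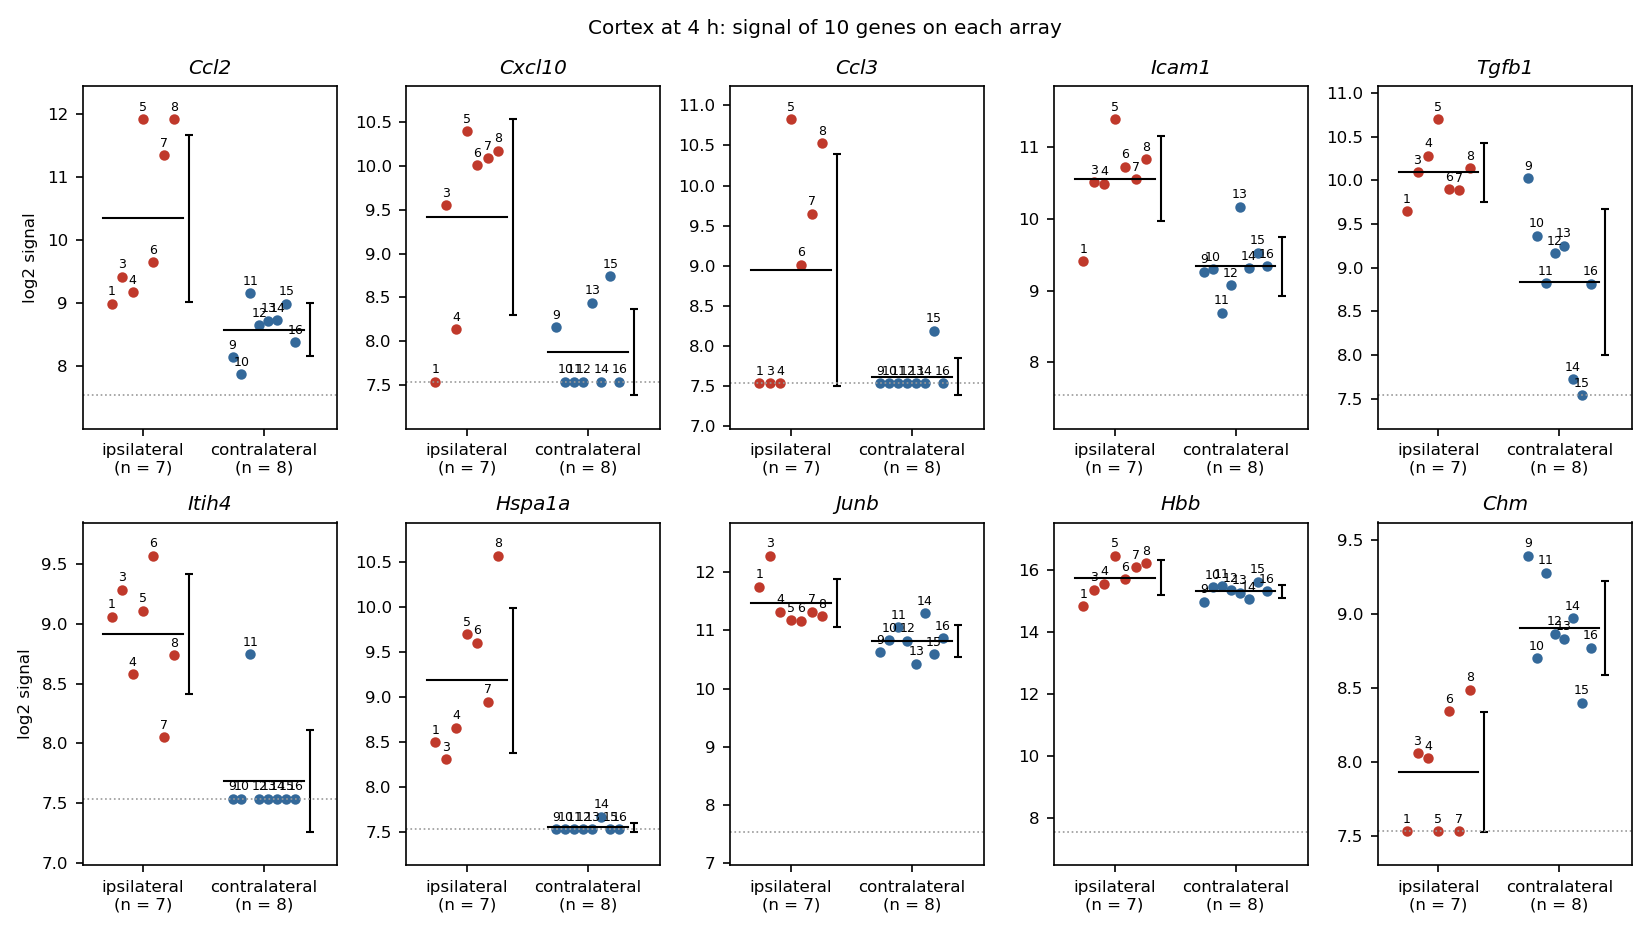
Log2 signal of 10 named genes on each array, with ipsilateral cortex (red, n = 7) left of contralateral cortex (blue, n = 8) at 4 h, array numbers beside the points, horizontal lines for means, bars for ± SD and a dotted line for the floor at 7.54. Arrays 5, 6, 7 and 8 carry the highest Cxcl10, Ccl3 and Hbb values, while Hspa1a is higher on all 7 ipsilateral arrays than on any contralateral array.

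Of 21 receptors and intracellular signalling genes of such ligands tested, 15 were higher, with a median of 0.22. At an unadjusted p under 0.05, 3 were higher and 1 lower, beside 3.82% higher and 3.49% lower over all genes. Irf1, an interferon-induced transcription factor, ran from 8.76 through 9.73 to 10.39 on ipsilateral arrays and from 8.76 through 9.31 to 9.84 on contralateral arrays (difference 0.49, SE 0.21; limma adjusted p = 0.604). Cebpb, a transcription factor of the acute phase response, ran from 8.57 through 10.34 to 11.29 on the ipsilateral side and from 8.44 through 9.84 to 10.38 on the contralateral side (0.59, SE 0.29; limma adjusted p = 0.666). For Cebpb arrays 6, 7 and 8 exceeded the contralateral maximum. The other higher gene was the chemokine receptor Ccr2, at 0.26, or 0.13 without array 3. Irf7 had a difference of −0.52 (SE 0.18) by 1 probe set and 0.10 by its other one, and with the first of these it left the floor on 1 of 7 ipsilateral arrays and 7 of 8 contralateral arrays.

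The related factor Cebpd was, by 1 probe set, at the floor on arrays 1, 3 and 4 and between 10.09 and 10.56 on arrays 5, 6, 7 and 8, while on the contralateral side it left the floor on array 15 alone, at 8.82. The difference was 1.41 (SE 0.45; limma adjusted p = 0.41), and a second probe set, present on all 15 arrays, differed by 1.14 (SE 0.36; limma adjusted p = 0.396) with the same 4 ipsilateral arrays above the contralateral maximum. Timp1, an inhibitor of matrix metalloproteinases, was between 10.12 and 10.98 on arrays 5, 6, 7 and 8, and at or under 8.80 on arrays 1, 3 and 4 (difference 1.49, SE 0.62; limma adjusted p = 0.596). Its contralateral values ended at 9.07, and the Timp1 probe set with the highest mean differed by 0.57 (SE 0.33). Timp1 was picked for its fold after values were seen.

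On the vessel side, Icam1, the endothelial ligand that arrests leukocytes, separated the sides on all but array 1. It ran from 9.41 through 10.55 to 11.39 in ipsilateral cortex, against 8.69 through 9.31 to 10.17 in contralateral cortex. Arrays 3 to 8 lay above the contralateral range, and array 1 fell within it. The difference was 1.22 (SE 0.28, 2.34-fold; limma adjusted p = 0.134), and the other Icam1 probe set differed by 0.72 (SE 0.25). The other adhesion genes measured differed less: Vcam1 by 0.04, Sele by 0.21, Selp by 0.40, Icam2 by −0.003 and Pecam1 by −0.0095. Edn1, the vasoconstrictor endothelin 1, had a difference of −0.64 (SE 0.23; limma adjusted p = 0.481), with arrays 1, 4, 5, 6 and 7 between the floor and 8.24, under the contralateral minimum of 8.42, and arrays 3 and 8 at 8.91 and 8.92. Over the list of 16 endothelial and vascular genes 7 were higher and 9 lower, with a median of −0.0063.

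Among plasma proteins, Itih4, an acute phase inter-alpha-trypsin inhibitor chain made mostly by liver, was above the floor on all 7 ipsilateral arrays and on 1 of 8 contralateral arrays. It ran from 8.05 through 9.06 to 9.57 in ipsilateral cortex, and array 11, at 8.74, was the contralateral exception. The difference was 1.22 (SE 0.28; limma adjusted p = 0.134). The list of acute phase and plasma proteins as a whole had 9 of 18 genes higher and a median of 0.02. Pla1a, a phospholipase that cleaves phosphatidylserine, ran from the floor through 9.23 to 9.72 on ipsilateral arrays and from the floor through the floor to 8.72 on contralateral arrays. Arrays 3, 5, 7 and 8 exceeded that maximum (difference 1.06, SE 0.28; limma adjusted p = 0.153).

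Microglia and macrophage genes were higher for 13 of 18, with a median of 0.07. Of them 1 was higher at an unadjusted p under 0.05, beside 3.82% of all genes. This was Cd74, which chaperones major histocompatibility class II molecules (0.51, SE 0.23, but −0.03 by its other probe set). The list's mean on arrays 3, 5, 6, 7 and 8 exceeded the contralateral range, the same arrays as for the cytokines. On arrays 3 and 7 it did so narrowly, at 0.196 and 0.177 log2 units from the contralateral median, against a contralateral maximum of 0.174. The abundant complement genes C1qb and C1qc, which resting microglia express, differed by 0.08 and 0.06, the phagocyte genes Lgals3, Fcgr2b and Lyz2 by 0.45, 0.43 and 0.40, and Ptprc, the pan-leukocyte marker CD45, by −0.44, the lowest of the list. Ptprc was above the floor on 4 of 7 ipsilateral and 8 of 8 contralateral arrays. The summed signal of the 3 microglia markers tested had a median of 7016 on ipsilateral and 7046 on contralateral arrays. In bulk tissue fewer cells of a type and less RNA per cell cannot be told apart. Cytokine signalling apart, Ptgs2, the inducible prostaglandin synthase, ran from 8.99 through 9.88 to 10.59 on ipsilateral arrays and from 8.77 through 9.33 to 9.74 on contralateral arrays (0.59, SE 0.24; limma adjusted p = 0.592).

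The inducible heat shock protein gene Hspa1a was the 1 gene whose groups did not overlap on the higher side. It ran from 8.31 through 8.95 to 10.57 on ipsilateral arrays, highest on arrays 5, 6 and 8, and was at the floor on 7 of 8 contralateral arrays, with array 14 at 7.68. The difference was 1.63 (SE 0.43, 3.1-fold; limma adjusted p = 0.153). Its probe set name marks possible matches to related transcripts, and near-identical copies of this gene exist, so the signal may be shared. Of 15 heat shock and chaperone genes, 10 were higher (median 0.08). At an unadjusted p under 0.05 there were 3 higher and 0 lower, beside 3.82% higher and 3.49% lower over all genes. Those 3 were Hspa1a, Hmox1 and the co-chaperone Dnaja1 (0.23, SE 0.10, or 0.13 without contralateral array 11). Constitutive members such as Hspa5 (0.07), Hsp90ab1 (−0.01) and Hspd1 (−0.01) lay near 0.

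Hmox1, haem oxygenase 1, ran from 9.63 through 11.62 to 12.03 on ipsilateral arrays and from 10.01 through 10.50 to 11.35 on contralateral arrays. Arrays 5, 6, 7 and 8 lay above the contralateral range, and array 1 lay below it. The difference was 0.62 (SE 0.30; limma adjusted p = 0.665), and 0.95 by the other probe set. Among blood genes Hbb was high on the same 4 arrays. Hbb, beta globin, ran from 14.83 through 15.71 to 16.46 on ipsilateral arrays and from 14.98 through 15.34 to 15.63 on contralateral arrays, with arrays 5 to 8 above the contralateral maximum and array 1 below the minimum.

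Of the 5 erythroid genes tested 4 were higher, with a median of 0.43. At an unadjusted p under 0.05, 3 were higher, beside 3.82% of all genes. These were Hbb (0.43, SE 0.15), Hbg1 (0.59, SE 0.19) and Alas2 (0.53, SE 0.17), the erythroid enzyme that starts haem synthesis. Hbg1 did not follow the pattern of Hbb, since it was at the floor on arrays 6 and 8, and the list's mean exceeded the contralateral range on array 5 alone. S100a8 (0.50, SE 0.15) and S100a9 (0.59, SE 0.21), calcium-binding proteins of neutrophils, were highest on array 8, at 9.04 and 9.09. On the contralateral side they left the floor on 3 of 8 and 2 of 8 arrays. The leukocyte list had 9 of 11 genes higher with a median of 0.10. The summed signal of the 4 blood cell markers tested, all of which were higher, ran from 31646 to 96606 on ipsilateral arrays and from 34171 to 52747 on contralateral arrays. Hbb makes up most of this sum. Its ipsilateral mean was 15.75 log2 signal, beside 11.55 for Alas2, 8.17 for S100a8 and 8.31 for S100a9. The part of blood in the cytokine and adhesion differences was not tested. The summed signal of 5 choroid plexus and meningeal markers ran from 9996 to 70874 on ipsilateral and from 9201 to 61513 on contralateral arrays. The choroid plexus gene Ttr ran from 9.19 to 15.88 log2 signal on ipsilateral and from 10.21 to 15.60 on contralateral arrays, while the meningeal gene Col1a1 ran from 11.43 to 11.81 and from 11.23 to 11.84.

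Immediate early transcription factors showed small and uneven differences. Of 18 tested, 13 were higher and 5 lower, with a median of 0.12. On the higher side 2 were under an unadjusted p of 0.05, beside 3.82% of all genes. Fos (0.16), Jun (0.09), Egr1 (−0.07) and Nr4a1 (0.01) lay near 0. Junb, an AP-1 subunit, stood out by 1 of its probe sets, which ran from 11.17 through 11.32 to 12.28 on ipsilateral arrays and from 10.42 through 10.83 to 11.29 on contralateral arrays. Arrays 1, 3, 4 and 7 lay above the contralateral range, array 3 the highest. The difference was 0.65 (SE 0.16; limma adjusted p = 0.134), and 0.28 (SE 0.17) by the other probe set.

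Myc, a growth-promoting transcription factor, depended on the probe set. By 1 probe set it ran from the floor through 8.79 to 9.08 on ipsilateral arrays and left the floor on 1 of 8 contralateral arrays (array 11, at 7.95), a difference of 0.91 (SE 0.21; limma adjusted p = 0.134). The other probe set, which represents Myc in the list, differed by 0.01. Atf3, induced by axon damage, differed by 0.47 and Klf4 by 0.45 (SE 0.20; limma adjusted p = 0.627). Crem, a cAMP-responsive factor, differed by 0.32 by the probe set of its highest mean and by −0.64, −0.24 and −0.08 by its other 3.

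**Figure D3:**
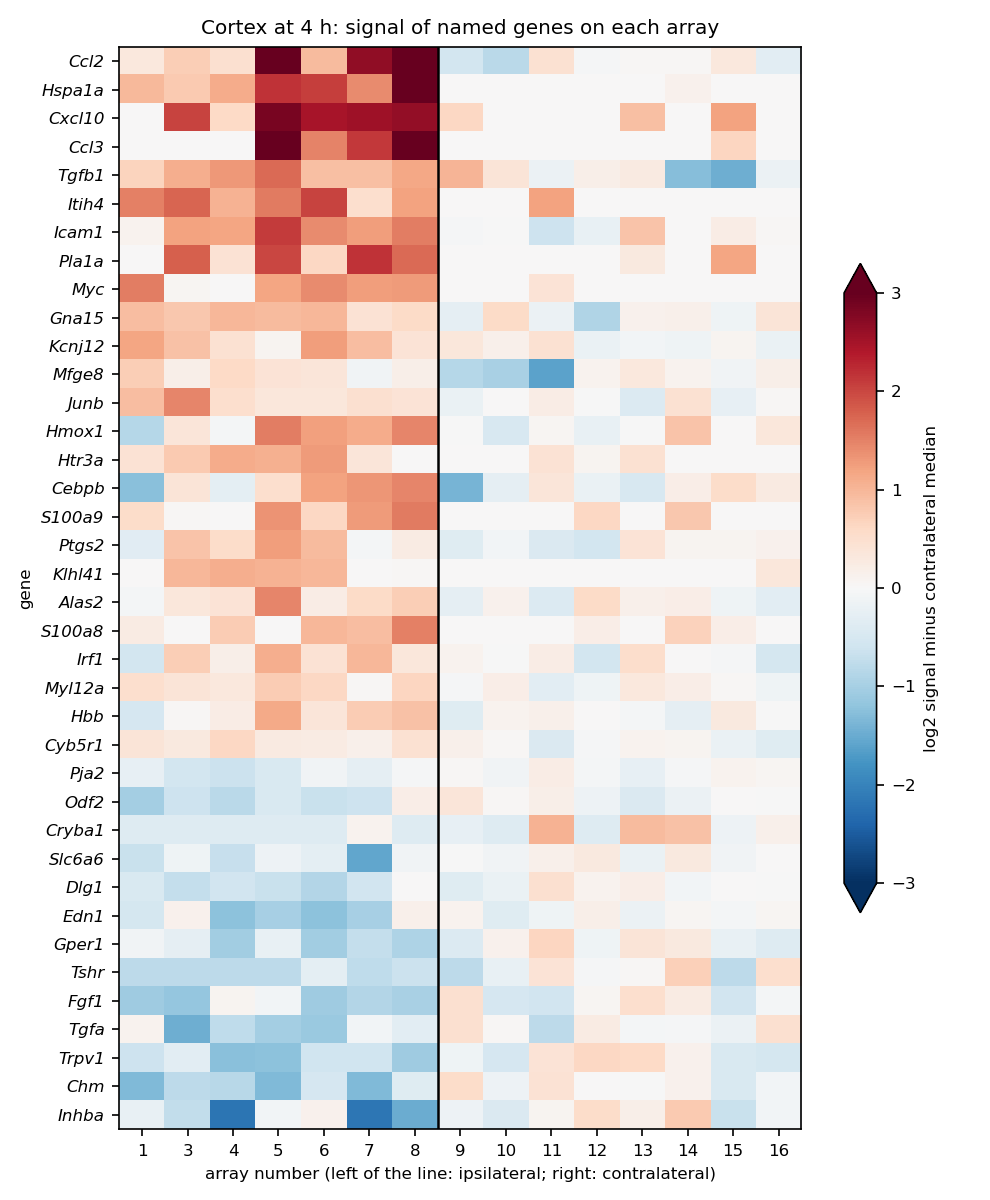
Log2 signal of named genes minus each gene's contralateral median, with arrays in columns (ipsilateral cortex left of the black line, contralateral cortex right of it), genes in rows ordered by their side difference, and the colour scale cut at ± 3. Ccl3, Cxcl10, Hmox1 and Hbb are red on arrays 5, 6, 7 and 8, while array 1 is at or below 0 for all 4 of these genes.

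The remaining genes with the smallest p on the higher side share no theme fixed in the lists. Gna15, a G protein alpha subunit of blood cells, ran from 9.69 through 10.20 to 10.27 on ipsilateral arrays and from 8.38 through 9.27 to 9.83 on contralateral arrays, with 6 of 7 above the contralateral maximum (0.84, SE 0.20; limma adjusted p = 0.134). Cyb5r1, a cytochrome b5 reductase, was above it on 6 of 7 arrays too, by a small difference (0.43, SE 0.11). Mfge8, which bridges dying cells to phagocytes, differed by 0.69 (SE 0.17), and the contralateral arrays 9, 10 and 11 were its lowest, between 11.56 and 12.33 where the other arrays of both sides lay between 13.07 and 13.91. Klhl41 (0.55, SE 0.13), Myl12a (0.45, SE 0.11), Kcnj12 (0.69, SE 0.19) and Htr3a (0.60, SE 0.16) complete the set. On the contralateral side Klhl41 left the floor on 1 of 8 arrays and Htr3a on 3 of 8. Htr3a, a serotonin-gated channel subunit, differed by −0.63 and −0.20 by its other 2 probe sets.

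On the lower side Chm, the Rab escort protein that presents Rab proteins for prenylation, came nearest to the threshold. It ran from the floor through 8.03 to 8.49 in ipsilateral cortex and from 8.40 through 8.85 to 9.40 in contralateral cortex. Arrays 1, 3, 4, 5, 6 and 7 lay below the contralateral minimum, with arrays 1, 5 and 7 at the floor, and array 8 just inside the contralateral range. The difference was −0.97 (SE 0.19; limma adjusted p = 0.0599).

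Inhba, an activin subunit induced by neuronal activity, ran from the floor through 8.97 to 9.85 on ipsilateral arrays and from 9.06 through 9.72 to 10.51 on contralateral arrays. Array 4 was at the floor and array 7 just above it, and arrays 1, 5 and 6 lay inside the contralateral range. The difference was −0.998 (SE 0.25; limma adjusted p = 0.134). Trpv1, the capsaicin receptor, ran from 7.56 through 8.19 to 8.50 on the ipsilateral side and from 8.28 through 8.80 to 9.43 on the contralateral side (−0.82, SE 0.20; limma adjusted p = 0.134). Slc6a6, the taurine transporter, differed by −0.56 (SE 0.14), with array 7 the lowest at 9.61 and the next ipsilateral array at 10.48.

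The others of this set were Tshr (−0.68, SE 0.18), Gper1 (−0.66, SE 0.19), Dlg1 (−0.57, SE 0.16), Cryba1 (−0.55, SE 0.16), Odf2 (−0.55, SE 0.16) and Pja2 (−0.32, SE 0.09). Tshr, the thyrotropin receptor, and Dlg1, a synaptic scaffold, had probe sets of opposite sign: the other 3 of Tshr differed by 0.27, −0.09 and −0.04, and the other 2 of Dlg1 by 0.26 and 0.05. Pja2, a ubiquitin ligase, was lower by all 3 of its probe sets (−0.32, −0.15 and −0.12). Tshr and Cryba1 were at or near the floor on most ipsilateral arrays. The 2 probe sets over 2-fold lower were those of Cyp24a1 (−1.10, SE 0.36), which inactivates vitamin D, and Nlgn2 (−1.03, SE 0.39), an adhesion protein of inhibitory synapses. Both were picked for their fold after values were seen.

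Several groups of neuronal and glial genes had medians below 0, by small amounts. All 11 oligodendrocyte and myelin genes tested were lower, with a median of −0.20 and a range from −0.24 to −0.0039, and none was under an unadjusted p of 0.05. The myelin genes Mobp (−0.24), Mog (−0.24) and Cnp (−0.21) had 4 of 7 ipsilateral arrays below the contralateral minimum, beside 2.15% of all genes with 4 or more arrays there, while Mbp, the most abundant, differed by −0.04. Glutamate receptors and transporters were lower for 17 of 23 (median −0.10), with 3 lower and 1 higher at that level. Over all genes the shares at that level were 3.49% lower and 3.82% higher, against which the neuronal, growth factor and matrix lists are also to be read. Those of the glutamate list were the receptor subunit Gria2 (−0.19, SE 0.08), the kainate receptor subunit Grik5 (−0.18, SE 0.08, or −0.10 without array 7) and the metabotropic receptor Grm3 (−0.24, SE 0.09) on the lower side, and the transporter Slc1a1 (0.18, SE 0.07, but −0.16 by another probe set) on the higher side.

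Voltage-gated ion channels were lower for 22 of 31 (median −0.08), with 0 either way at an unadjusted p under 0.05. Among 31 neuronal and synaptic genes 18 were lower, 3 of them at that level: the fusion proteins Syt1 (−0.38, SE 0.18), Nsf (−0.35, SE 0.16) and Vamp1 (−0.22, SE 0.10), all lowest on ipsilateral array 7, which also had the lowest median signal of the ipsilateral arrays (9.28 on the log2 scale, where the others ran from 9.37 to 9.62). Without array 7 these differences were −0.17 for Syt1, −0.22 for Nsf and −0.11 for Vamp1. Contralateral arrays 10 and 15 had similar median signals, 9.26 and 9.29. The list's mean lay 0.02 and −0.01 from the contralateral median on those arrays, and −0.23 from it on array 7. Whether the median signal plays a part was not tested. The neurofilament Nefh was the 1 higher at that level (0.22, SE 0.11). Growth factors and their receptors had 19 of 32 lower, with 3 lower and 0 higher at that level, Inhba, Tgfa (−0.69, SE 0.21) and Fgf1 (−0.69, SE 0.23). Among 29 matrix and protease genes 16 were lower, with 4 lower and 1 higher at that level. The 4 were the proteoglycans Bcan (−0.21, SE 0.07) and Vcan (−0.51, SE 0.21, or −0.28 without array 3), the integrin Itga7 (−0.30, SE 0.12) and the protease inhibitor Serpine2 (−0.22, SE 0.11). The higher one was the integrin Itgb1 (0.33, SE 0.16), named after its values were seen. Among astrocyte markers the glutamate transporters Slc1a2 and Slc1a3 differed by −0.0083 and −0.02, and glutamine synthetase, Glul, by −0.04.

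Metabolic lists were centred near 0. Respiratory chain genes had a median of 0.01 and glycolysis genes of −0.02, with Pgk1 at 0.37 (SE 0.14; −0.18 and 0.02 by its other probe sets) and Aldoa at −0.17 (SE 0.08). Cholesterol synthesis genes were higher for 12 of 14 with a median of 0.06, led by Nsdhl (0.39, SE 0.14). GABA system genes had a median of 0.0086, with the GABA transaminase Abat at 0.38 and −0.13 by its 2 probe sets. Without contralateral array 11 the first of these was 0.21. Antioxidant genes had a median of −0.04 with Txnrd1 at 0.22 (SE 0.08), apoptosis genes 0.12 with Bak1 at 0.22 (SE 0.10), and cell cycle genes 0.09 with Aurkb at −0.53 (SE 0.22) and Ccnd3 at 0.17 (SE 0.08). Of the other lists, reactive astrocyte genes had a median of 0.16 with 13 of 19 higher, hypoxia-linked genes of 0.03, activity-regulated effectors of 0.05, neuropeptides of 0.0057 and glucocorticoid-responsive genes of 0.06. The medians of astrocyte homeostatic, hippocampus-enriched and cortex-enriched genes were −0.01, −0.08 and −0.04. Choroid plexus and meningeal genes had a median of −0.02, with the organic anion transporter Slc22a6 at −0.91 (SE 0.40).

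**Figure D4:**
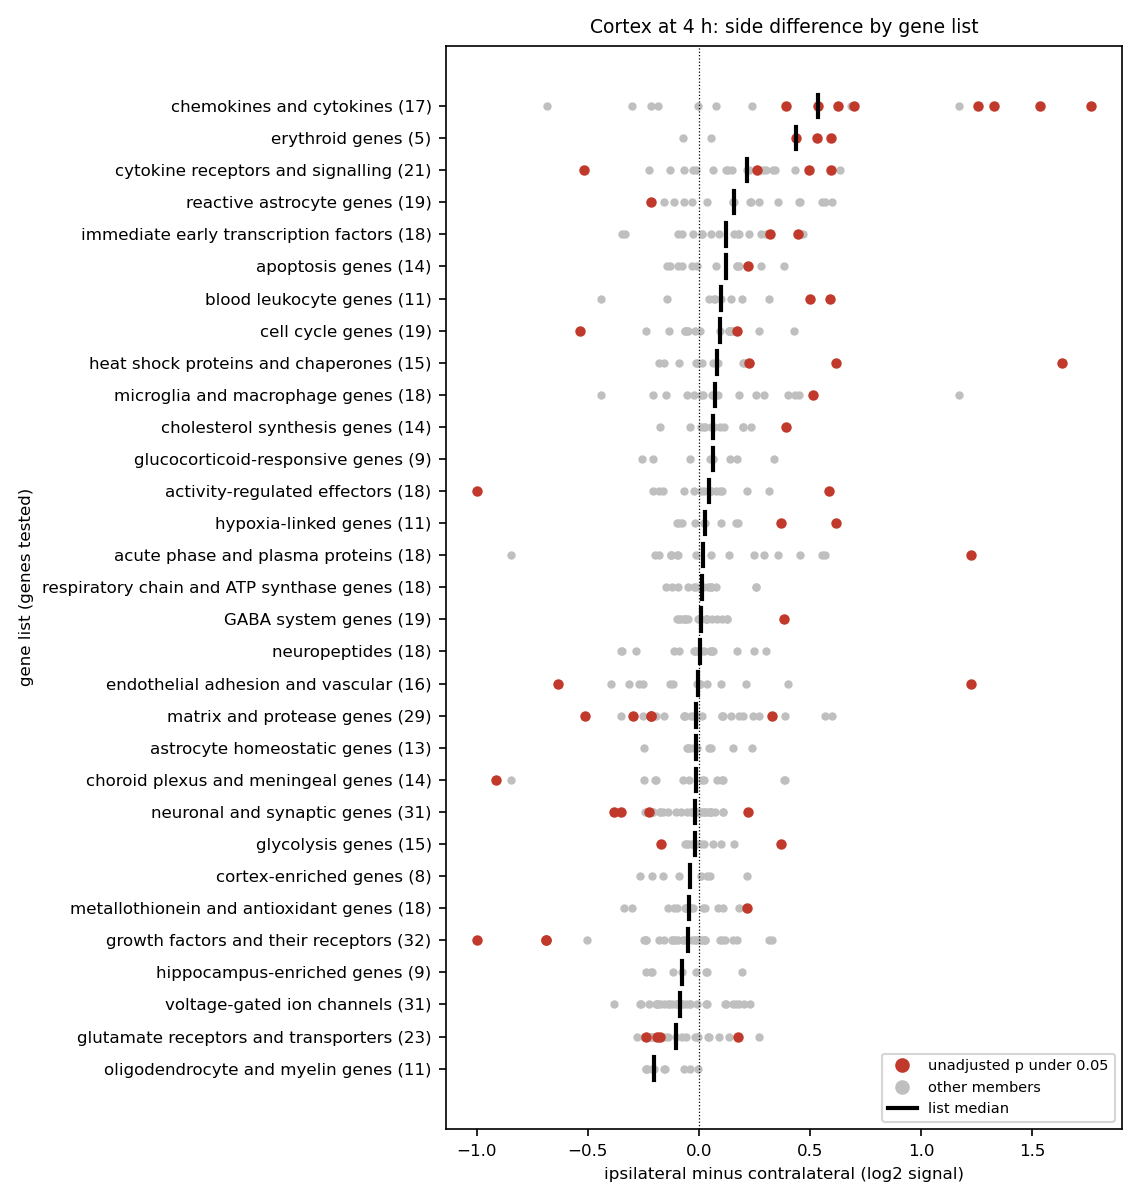
Ipsilateral minus contralateral difference in log2 signal (horizontal axis) of each tested member of 31 gene lists (rows, with the number tested), red where the unadjusted p was under 0.05, with a black bar for the list's median. The chemokine and cytokine list has the highest median, 0.53, and the oligodendrocyte and myelin list the lowest, −0.20.

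Spread between arrays was compared by a limma test on each array's absolute distance from its group's mean, which called 126 probe sets wider on the ipsilateral side (1.68%) and 106 wider on the contralateral side (1.41%). In simulated data this test made more false calls than its threshold allows, and a group whose arrays sit at the floor has a small spread by construction. In each of the 10 genes named for this test, most arrays of the narrower side were at the floor. Among probe sets above the floor on all 15 arrays, a filter chosen after seeing the data, 5 of 4936 were called. These include Clta, a clathrin light chain, wider on the ipsilateral side, and Muc1, Hrk and Upb1, wider on the contralateral side. The 10 genes with the smallest p in the spread test were Klhl41, Ccr2, RT1-A3, Cebpd, Akr1c14 and Tbxas1, wider on the ipsilateral side, and Osbpl2, Fat2, Spam1 and Jag1, wider on the contralateral side. Of these Cebpd had the largest difference in spread, 1.15 log2 units (SE 0.19; limma adjusted p = 4.22e-05), and the chemokine receptor gene Ccr2 left the floor on arrays 3, 4 and 5 of the ipsilateral side.

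The side difference at 4 h was set against that in cortex at 24 h. At 24 h 8 probe sets (0.107%) passed the side test, where 0 passed at 4 h. No probe set differed between the times (0 of 7503; limma, smallest adjusted p = 0.279), and 421 (5.61%) were under an unadjusted p of 0.05. The side difference was smaller in size at 24 h for 63 of the 66 named probe sets, which had been chosen for their differences at 4 h. Hspa1a differed between sides by 1.63 (SE 0.43) at 4 h and −0.06 (SE 0.41) at 24 h, Icam1 by 1.22 (SE 0.28) and 0.09 (SE 0.27), Itih4 by 1.22 (SE 0.28) and −0.06 (SE 0.27), and Junb by 0.65 (SE 0.16) and 0.02 (SE 0.15). Chm differed by −0.97 (SE 0.19) at 4 h and 0.02 (SE 0.19) at 24 h. Hmox1 differed by 0.62 (SE 0.30) at 4 h and 0.91 (SE 0.29) at 24 h, and Spp1 by 1.17 (SE 0.60) and 2.59 (SE 0.58). None of these differences between times passed (limma adjusted p from 0.737 for Icam1 to 0.982 for Hmox1).

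Against hippocampus at 4 h, where 1207 probe sets (16.1%) passed the side test, the cortical side difference differed for 314 probe sets (4.18%), 233 of them in the higher direction (3.11%) and 81 in the lower (1.08%). Of the 66 named probe sets 14 passed this test. They had been chosen for their cortical side differences at 4 h, which enter this test too. Their number and their p-values are therefore favoured by the choice. Icam1 differed between sides by 1.22 (SE 0.28) in cortex and by −0.13 (SE 0.27) in hippocampus, which makes a difference of 1.36 (SE 0.39; limma adjusted p = 0.0386). Itih4 differed by 1.22 and −0.34 (difference 1.57, SE 0.40; limma adjusted p = 0.0197), and Mfge8 by 0.69 and −0.39 (1.08, SE 0.24; limma adjusted p = 0.01). On the lower side Chm differed by −0.97 in cortex and −0.02 in hippocampus (−0.95, SE 0.27; limma adjusted p = 0.0375). The chemokines did not pass this test: Ccl2 differed by 1.76 and 0.93 (limma adjusted p = 0.571), Ccl3 by 1.33 and 0.86 (adjusted p = 0.691) and Cxcl10 by 1.54 and 0.48 (adjusted p = 0.314). Trpv1 differed by −0.82 in cortex and −0.73 in hippocampus, a difference of −0.09 (SE 0.28; limma adjusted p = 0.894). With the 10th percentile of each array's signal as a covariate, the count was 1, and without 1 ipsilateral or contralateral cortical array the count ran from 135 (without array 5) to 508 (without array 14).

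**Figure D5:**
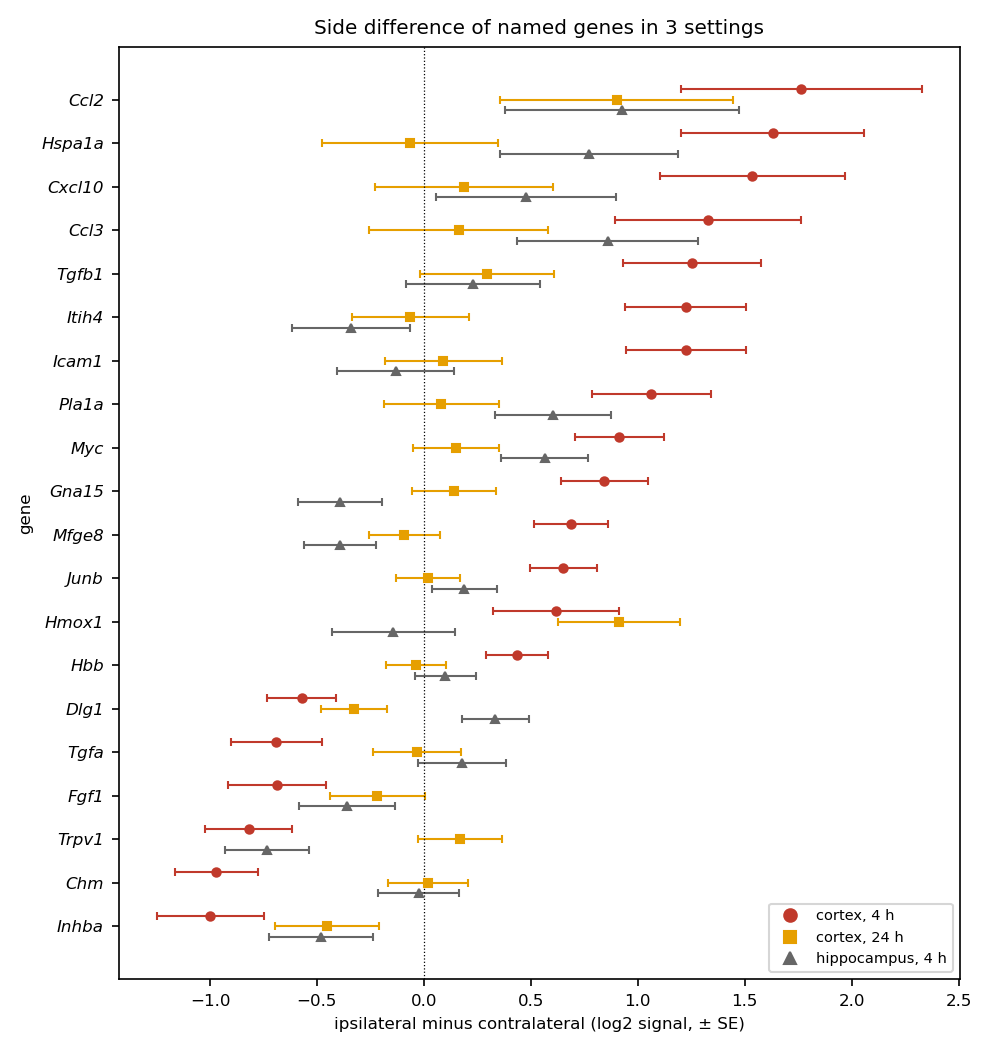
Ipsilateral minus contralateral difference in log2 signal (horizontal axis, ± SE) of 20 named genes in cortex at 4 h (red circles), cortex at 24 h (orange squares) and hippocampus at 4 h (grey triangles). Hspa1a, Icam1, Itih4 and Chm have their largest difference in cortex at 4 h, and Hmox1 in cortex at 24 h.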

How the data were processed

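Total RNA from rat cortex and hippocampus was measured on 47 single-colour oligonucleotide arrays. The authors deposited 1 linear intensity for each probe set and array. The software that summarised and scaled them is not given in the sources used here, and the 2%-trimmed means of the arrays lay between 2503 and 2504, so the values were already scaled and were kept as deposited. The number of arrays limits the precision. A floor was set at the 25th percentile over the whole matrix (a signal of 185.8, or 7.54 in log2), and analysis used log2 of the floored signals. The 59 control probe sets were left out, and the 7503 probe sets that exceeded that floor on 7 or more arrays were tested. A single gene name belonged to 6122 of them, several to 267 and none to 1114, and 6104 of the 6122 matched RefSeq (GRCr8) by gene ID. They cover 4242 genes.

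Groups came from the labels. All 47 arrays entered 1 limma model (3.58.1, in R 4.3.3, package data.table version 1.17.8) of 6 group means with eBayes and an intensity trend, two-sided, with Benjamini-Hochberg adjustment over the 7503 probe sets and a threshold of 0.05. It gave 4 comparisons: the side difference in cortex at 4 h, its difference from that at 24 h, its difference from that in hippocampus, and the difference in spread, from absolute deviations from group means. The tests were tried on simulated data first. The 7 quality measures were compared by exact permutation tests.

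Named genes were, among probe sets that name 1 gene, all past the threshold, then up to 14 higher and 10 lower by unadjusted p, up to 4 members of each of 31 gene lists with the smallest p among those under 0.05, and 10 for the spread test. In lists the brightest probe set stands for a gene. For the other comparisons only genes named for cortex at 4 h were used. Exceptions are named as such. The arrays, members and lists were chosen with earlier results of these data known, and nothing the lists show is independent support. Alternatives were another floor or none, other filters, quantile normalization, array weights, robust moderation, no trend, a covariate, the 15 arrays alone and leaving out each array.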

Additional observations from a re-analysis of the deposited data

Results flagged for a closer look

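Single arrays stood far from the rest of their group for 6 of 66 named probe sets, over 115 groups of values checked; chance alone marks about 1 in 20 groups. On the ipsilateral side these were Slc6a6 on array 7, the lowest at 9.61 with the next at 10.48, Slc22a6 on array 1, the highest at 9.70 with the next at 8.23, Slc1a1 on array 6, the lowest at 12.62 with the next at 12.95, and Serpine2 on array 1, the lowest at 11.72 with the next at 12.03. On the contralateral side they were Pgk1 on array 10, the lowest at 13.37 with the next at 14.08, and Dnaja1 on array 11, the lowest at 12.79 with the next at 13.40 (all log2 signals).

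The side difference at 4 h differed between cortex and hippocampus, by the limma test of that difference, for 14 named probe sets. Cortex minus hippocampus, it was higher for Itih4 (1.57), Icam1 (1.36), Gna15 (1.24), Mfge8 (1.08), Hbg1 (1.06), Klhl41 (0.71), Myl12a (0.71), Bak1 (0.56) and Ccnd3 (0.38). It was lower for Chm (−0.95), Dlg1 (−0.91), Odf2 (−0.72), Pja2 (−0.60) and Serpine2 (−0.52). These values are log2 differences of differences. They share the cortical arrays with the side comparison by which the genes were chosen.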

How the results depend on the processing

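Of 1690 alternative values of single named probe sets, 1669 kept their direction and their side of the threshold, 21 crossed it, and 0 reversed. None had passed as reported, so keeping the side means that a probe set still did not pass. The probe sets were chosen for small p-values on the same arrays, which favours a kept direction. Changes in the size of a difference are not covered by these counts. The count of probe sets past the threshold for the side difference, 0 as reported, was 5 with a floor at the 10th percentile (among them Itih4, Hspa1a, Chm and Irf7) or with log2(value + 16), 3 with log2(value + 64), 1 with quantile normalization or without the intensity trend (Chm both times) and 2 with the 10th percentile as covariate (Chm and Inhba). Leaving out 1 array gave 0 to 2: Icam1 and Klhl41 without array 1, Myc without array 3 or 4, and Chm without array 6, 8 or 15. The number under an unadjusted p of 0.05, 558, was 304 with the 15 arrays only, 350 with array weights and 352 among probe sets above the floor on all 15 arrays, where fewer were tested. The difference between 4 h and 24 h called 1 with the lower floor. The difference from hippocampus, 314, was 1 with the covariate and 135 to 508 on leaving out 1 array. The spread test, 232, gave 111 with the 15 arrays only, 709 without a filter, 147 with the lower floor, 24 with log2(value + 64), 31 with log2(value + 16) and 5 above the floor on all 15 arrays. The cause of these shifts was not tested. No paired analysis was run, because the labels do not say which ipsilateral and contralateral arrays share an animal. The sample numbers in the labels occur once each and no groups share them. The log2 10th percentile of signal on arrays 1, 3, 4, 5, 6, 7 and 8 was 5.75, 5.96, 5.86, 6.09, 6.11, 5.36 and 5.57. On arrays 9, 11, 12, 13, 14, 15 and 16 it was 5.82, 5.84, 6.11, 6.09, 6.17, 5.39 and 5.71. Whether arrays at the same place in these runs share an animal or a batch was not tested. Values at the floor have no order, which limits the genes that 1 probe set given here put at the floor on most contralateral arrays. They include Ccl3, Hspa1a, Itih4, Myc, Klhl41, Cebpd, Pla1a, Hbg1, Cd74, S100a8, S100a9, Htr3a and Cxcl10.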

Other observations

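Of the 16 probe sets over 2-fold higher in ipsilateral cortex, 2 have no single gene name in the annotation used, L00981mRNA#2_at and L16764_s_at. The first was at the floor on arrays 1 and 4, between 9.23 and 10.18 on arrays 3, 5, 6, 7 and 8, and above the floor on 1 of 8 contralateral arrays, array 11, at 8.36 (difference 1.53, SE 0.40; limma adjusted p = 0.15). At 24 h its side difference was 0. The second ran from 9.88 to 12.34 on ipsilateral arrays and from 8.34 to 10.58 on contralateral arrays, and arrays 3, 5, 6 and 8 exceeded the contralateral maximum (1.24, SE 0.34; limma adjusted p = 0.217). Cyb5r3, a cytochrome b5 reductase, was over 2-fold higher too (1.22, SE 0.47; limma adjusted p = 0.547), with arrays 3, 4 and 5 above the contralateral maximum of 10.04. These 3 probe sets were picked for their fold after their values were seen.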
